A study of Mus musculus with 6 samples.

Results

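Low-threshold mechanoreceptors with unmyelinated C fibres (C-LTMRs) are sensory neurons of the dorsal root ganglion that respond to gentle touch of hairy skin. The genes described here are 8 markers given for this class, Th, Slc17a8, Fam19a4, Zfp521, Cdh9, Cdh8, Foxp2 and Gpr26. They were taken by symbol from the 1 deposited gene table, and all 8 were found among its 16613 genes. All 8 also passed the filter on low counts, which kept 15043 genes. The measured groups were 3 knockout libraries and 3 control libraries of poly(A) RNA from whole dorsal root ganglia of mice 6 months old. Knockout mice carried the Kif2a fl/fl alleles and Avil cre, and control mice carried Kif2a fl/fl alone, so the floxed alleles were common to both groups. Kif2a encodes a kinesin that depolymerises microtubules, and the study asked how its loss from sensory neurons bears on nociception. The advillin (Avil) promoter directs Cre to sensory neurons as a whole, not to one class, and only knockout mice carried it. Effects of the Cre itself therefore cannot be told apart from those of the deletion. Whether each library was made from its own animal is not said in the labels. The p-values therefore measure the spread between libraries only, which may in part be technical.

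In mice, C-LTMRs are recognised by tyrosine hydroxylase, the product of Th, and by the vesicular glutamate transporter VGLUT3, the product of Slc17a8. Their endings wrap hair follicles, and they release the secreted protein TAFA4, the product of Fam19a4, which dampens mechanical pain after injury in mice. The transcription factor Runx1 is required for several of their genes. Several of the 8 genes are not limited to this class. Th is also high in sympathetic neurons, and Foxp2, Cdh8 and Cdh9 are expressed by many neurons of the brain and spinal cord. In whole ganglia, fewer cells of a type and less RNA per cell cannot be told apart. Control replicate 2 stood apart from the other libraries in skeletal muscle genes and in part of the markers, so results that rest on it are given with and without it.

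The 4 markers that were highest in control replicate 2 were Th, Slc17a8, Fam19a4 and Cdh9, and the 250 bases before their RefSeq starts are shown because these genes shared their highest library and also their lowest, knockout replicate 1. The sequences are from RefSeq on build GRCm38.p6, written 5′ to 3′ on the strand of the gene. Fam19a4 is listed there as Tafa4, and 5 of the 8 markers had an entry. Capitals mark exact matches to any of 4 motifs, searched on both strands. The motifs were the cAMP response element TGACGTCA, the Runx core TGTGGT, the TATA box TATAAA and the CCAAT box CCAAT. The Th window lies at chr7:142899996-142900245 on the minus strand, that of Slc17a8 at chr10:89621250-89621499 on the minus strand, that of Fam19a4 at chr6:97060412-97060661 on the minus strand and that of Cdh9 at chr15:16728665-16728914 on the plus strand. RefSeq starts differ from the ends of the GENCODE gene spans given further on, so that the Th window lies inside the Th span and the other 3 windows overlap the edge of theirs.
Th: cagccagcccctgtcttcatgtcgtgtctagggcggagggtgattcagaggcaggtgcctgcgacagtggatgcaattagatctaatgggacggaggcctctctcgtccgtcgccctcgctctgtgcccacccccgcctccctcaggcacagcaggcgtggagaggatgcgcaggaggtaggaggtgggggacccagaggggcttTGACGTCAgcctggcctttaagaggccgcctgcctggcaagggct
Slc17a8: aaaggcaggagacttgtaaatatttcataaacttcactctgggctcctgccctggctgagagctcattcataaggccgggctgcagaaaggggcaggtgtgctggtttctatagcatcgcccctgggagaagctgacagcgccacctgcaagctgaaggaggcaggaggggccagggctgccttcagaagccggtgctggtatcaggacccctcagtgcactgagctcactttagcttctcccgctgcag
Fam19a4: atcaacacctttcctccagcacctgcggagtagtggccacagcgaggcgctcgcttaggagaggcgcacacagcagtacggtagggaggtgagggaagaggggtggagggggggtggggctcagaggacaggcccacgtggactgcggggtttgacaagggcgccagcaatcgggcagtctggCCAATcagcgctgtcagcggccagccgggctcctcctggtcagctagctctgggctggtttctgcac
Cdh9: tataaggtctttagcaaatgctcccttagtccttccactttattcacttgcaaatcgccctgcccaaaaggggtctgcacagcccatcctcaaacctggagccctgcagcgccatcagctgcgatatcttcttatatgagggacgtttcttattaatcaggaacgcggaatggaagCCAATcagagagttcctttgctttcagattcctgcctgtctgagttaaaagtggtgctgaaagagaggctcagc

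The Th window held 1 cAMP response element, which began 45 bases before the start. Of 32851 promoter windows of the same length, 1.55% held that motif. The windows of Fam19a4 and Cdh9 each held a CCAAT box, beginning 67 and 74 bases before the start, as did that of Cdh8 at 19 bases, and 33.8% of all windows held one. No Runx core or TATA box was found in these windows, against 14.0% and 12.4% of all windows, and Slc17a8 had no match to any of the 4 motifs. The windows had a GC content of 64.4% for Th, 57.2% for Slc17a8, 65.2% for Fam19a4 and 48.0% for Cdh9, against a median of 52.4% over all windows.

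Across the 8 markers, no difference between knockout and control passed the test in a fit of all 6 libraries, and the 2 groups overlapped for each marker. All 8 log2 fold changes (knockout minus control) were negative, as were 47.7% of those of all genes tested, with a median of -0.41 against 0.01 over all genes. In edgeR's quasi-likelihood test without a block, 0 of the 8 passed a Benjamini-Hochberg adjusted p of 0.05, and so did 0.0% of all genes. At an unadjusted p of 0.05 the counts were 0 markers and 5.48% of genes. When the replicate number entered as a block, 0 of the 8 passed, against 3.6% of genes (2.36% lower and 1.24% higher in the knockout). There, 1 marker, Slc17a8, had an unadjusted p under 0.05, as did 19.1% of genes. DESeq2 called 0 of the 8 and 0.432% of genes. In it 1 marker, Th, had an unadjusted p under 0.05, as did 814 of 15043 genes. Groups that did not overlap were found for 0 of the 8 markers and for 11.1% of all genes. Below, "rose" and "fell" stand for an adjusted p under 0.05 in edgeR with the replicate block.

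**Figure D1:**
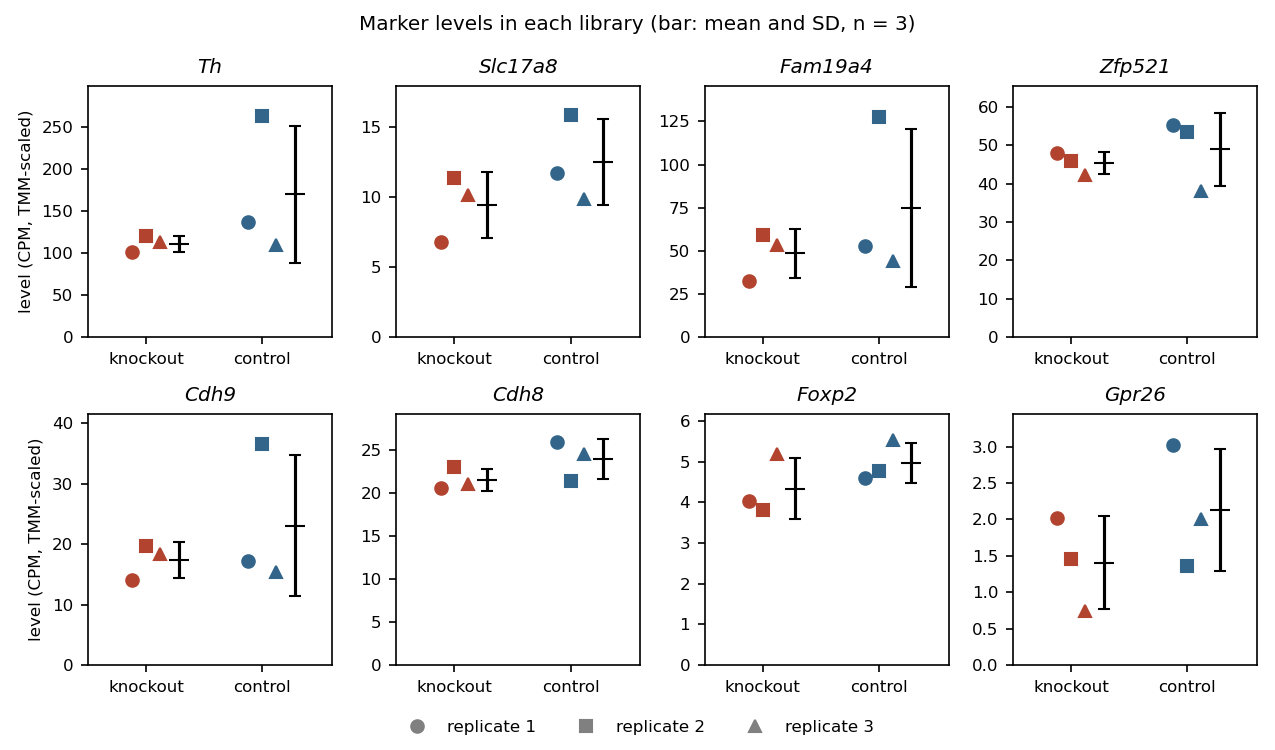
Levels of the 8 markers in each library, in CPM (the count scaled to a common library total, with edgeR's TMM factors), with the knockout left of the control. Symbols give the replicate number, and the bar beside each group is its mean and SD over 3 libraries. Th, Slc17a8, Fam19a4 and Cdh9 have their highest value in control replicate 2, and for each marker the groups overlap.

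Th encodes tyrosine hydroxylase, the rate-limiting enzyme of catecholamine synthesis, and its gene spans 142892752 to 142931128 of chromosome 7 (minus strand, GENCODE M21 on GRCm38). Its level was 100.8, 119.8 and 112.4 CPM in knockout replicates 1 to 3, against 137.1, 262.3 and 109.1 CPM in control replicates 1 to 3. The knockout libraries lay close together, whereas control replicate 2 was 1.91 times the next highest library and control replicate 3 fell within the knockout range. The coefficient of variation was 8.59% in the knockout and 48.1% in the control. The log2 fold change of Th was -0.61 (SE 0.29, 95% confidence interval -1.29 to 0.07), with an edgeR adjusted p of 0.914. Without control replicate 2, mean Th in the knockout was 90.2% of that in the control, and the log2 fold change was -0.14 (SE 0.15).

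Slc17a8 encodes VGLUT3, which loads glutamate into synaptic vesicles, and its gene spans 89574020 to 89621253 of chromosome 10 (minus strand). It was at 6.78, 11.3 and 10.1 CPM in knockout replicates 1 to 3, and at 11.7, 15.8 and 9.87 CPM in control replicates 1 to 3. Knockout replicate 1 was the lowest and control replicate 2 the highest, and the other 4 libraries lay between 9.87 and 11.7 CPM. Slc17a8 had a log2 fold change of -0.41 without the block (SE 0.24, edgeR adjusted p = 0.933) and of -0.41 with it (SE 0.16, edgeR adjusted p = 0.191). Without control replicate 2 and without the block it was -0.19 (SE 0.235, edgeR adjusted p = 0.946).

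Fam19a4 spans 96831203 to 97060413 of chromosome 6 (minus strand), and its product is a secreted chemokine-like protein. Knockout replicates 1 to 3 had 32.6, 59.4 and 53.6 CPM of Fam19a4, and control replicates 1 to 3 had 53.0, 127.3 and 44.0 CPM. The coefficient of variation in the control, 61.1%, was the largest of the 8 markers, and control replicate 2 alone stood above all knockout libraries. The log2 fold change of Fam19a4 was -0.62 (SE 0.40, 95% confidence interval -1.54 to 0.30, edgeR adjusted p = 0.952). Without control replicate 2 it was 0.007 (SE 0.24), where the mean level was 48.5 CPM in the knockout and 48.5 CPM in the control.

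Gpr26 encodes an orphan G-protein-coupled receptor and its gene spans 131966460 to 131994405 of chromosome 7 (plus strand). It rested on few reads, with 38, 25 and 12 counts in knockout replicates 1 to 3 and 54, 23 and 36 counts in control replicates 1 to 3. These correspond to 2.01, 1.46 and 0.74 CPM in the knockout and to 3.02, 1.36 and 2.01 CPM in the control. Unlike Th and Fam19a4, Gpr26 had its lowest control value in replicate 2. Its log2 fold change was -0.59 (SE 0.42, edgeR adjusted p = 0.957), and -0.81 (SE 0.43) without control replicate 2.

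Cdh9 and Cdh8 encode type II classical cadherins, which join cells by calcium-dependent adhesion. Cdh9, which spans 16728756 to 16857094 of chromosome 15 (plus strand), was at 14.1, 19.8 and 18.3 CPM in the knockout and at 17.2, 36.5 and 15.4 CPM in the control. Control replicate 2 was 1.85 times the next highest library, and the other control libraries lay among those of the knockout. The log2 fold change of Cdh9 was -0.41 (SE 0.32, edgeR adjusted p = 0.969), and without control replicate 2 it was 0.10 (SE 0.18). Cdh8, which spans 99024471 to 99416471 of chromosome 8 (minus strand), varied little, at 20.5, 23.0 and 21.0 CPM in the knockout and 25.9, 21.4 and 24.5 CPM in the control. For this cadherin control replicate 2 was the lowest of its group. Cdh8 had a log2 fold change of -0.15 (SE 0.13, 95% confidence interval -0.44 to 0.13, edgeR adjusted p = 0.971). Exons of Cdh9 share 224 bases with Gm49127 and those of Cdh8 share 23 bases with Gm15679, both on the other strand, and reads of such partners were not told apart.

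Zfp521 and Foxp2 encode transcription factors, with zinc fingers in the first and a forkhead domain in the second. Zfp521, which spans 13687013 to 13972787 of chromosome 18 (minus strand), was at 48.1, 45.8 and 42.3 CPM in knockout replicates 1 to 3 and at 55.4, 53.5 and 38.1 CPM in control replicates 1 to 3. Control replicates 1 and 2 were above the knockout and control replicate 3 was the lowest of all libraries. The log2 fold change of Zfp521 was -0.11 (SE 0.16, 95% confidence interval -0.47 to 0.25, edgeR adjusted p = 0.981), and without control replicate 2 it was -0.032 (SE 0.17). Foxp2, which spans 14901349 to 15441977 of chromosome 6 (plus strand), had 4.03, 3.80 and 5.18 CPM in the knockout and 4.59, 4.78 and 5.52 CPM in the control. In both groups replicate 3 had the most Foxp2, and knockout replicate 3 exceeded control replicates 1 and 2. Its log2 fold change was -0.20 (SE 0.20, edgeR adjusted p = 0.981), and Foxp2 was the 1 marker whose value was lower in the knockout in 3 of 3 same-numbered pairs.

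**Figure D2:**
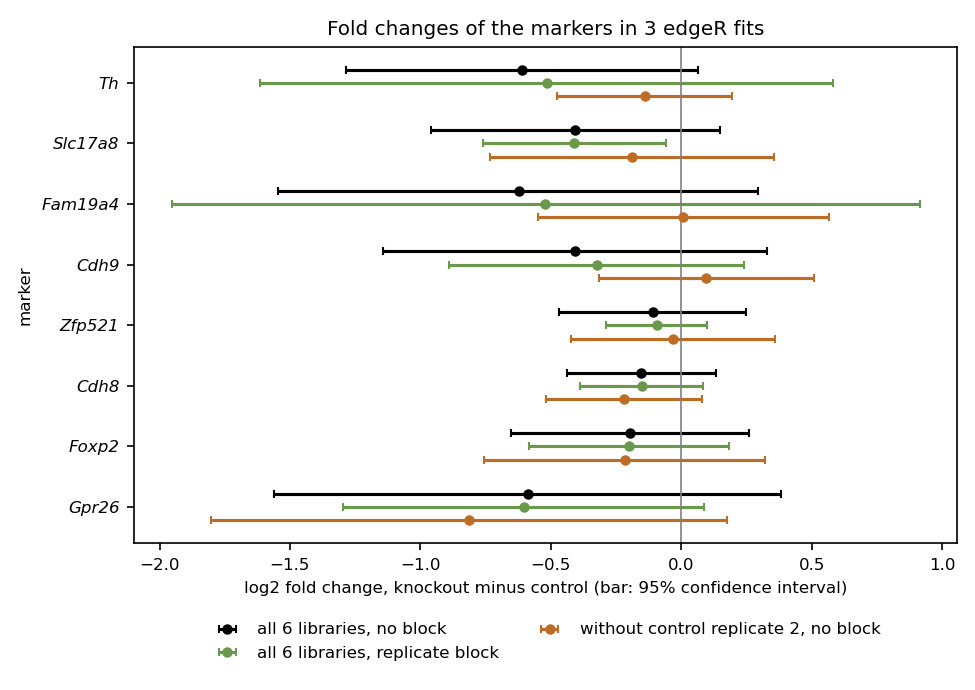
Log2 fold changes of the 8 markers, knockout minus control, with 95% confidence intervals from edgeR, from all 6 libraries without a block, from all 6 with a block for the replicate number, and without control replicate 2. Without that library Fam19a4 and Cdh9 lie at 0.007 and 0.10, and Th at -0.14.

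Per length of exon, Th was the most abundant of the markers. Its level in CPM per kilobase of exon (RPKM) was 47.0 ± 4.03 in the knockout and 71.7 ± 34.5 in the control (SD, n = 3 each). Fam19a4 followed at 8.52 ± 2.48 RPKM in the knockout and 13.1 ± 8.03 RPKM in the control, and Zfp521 at 6.46 ± 0.42 RPKM in the knockout and 6.97 ± 1.35 RPKM in the control. The ranges of Fam19a4 and Zfp521 overlapped in both groups, so their order was not resolved, and those of Zfp521 and Cdh9 overlapped in the control. Cdh9 had 4.91 ± 0.83 RPKM in the knockout and 6.52 ± 3.30 RPKM in the control, and Cdh8 had 2.78 ± 0.17 RPKM in the knockout and 3.09 ± 0.30 RPKM in the control. Slc17a8 came next with 1.99 ± 0.50 RPKM in the knockout and 2.64 ± 0.65 RPKM in the control, below Cdh8 in every knockout library, while the ranges overlapped in the control. Foxp2 was scarcer, at 0.27 ± 0.05 RPKM in the knockout and 0.30 ± 0.03 RPKM in the control. Gpr26 was the scarcest, at 0.12 ± 0.06 RPKM in the knockout and 0.18 ± 0.07 RPKM in the control, with no overlap with Foxp2 in either group. These values use the union of annotated exons, from 2364 bases for Th to 16346 bases for Foxp2, and would shift if other transcripts were used.

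The markers did not share one profile across libraries. Th, Slc17a8, Fam19a4 and Cdh9 were highest in control replicate 2 and lowest in knockout replicate 1. Control replicate 2 was the highest library for 4 of the 8 markers and for 22.1% of all genes tested. For 3 of them, Th, Fam19a4 and Cdh9, it was at least 1.5-fold above all 5 other libraries, which held for 1.36% of all genes. Relative to the mean of control replicates 1 and 3, control replicate 2 was 2.62 times as high for Fam19a4, 2.23 times for Cdh9, 2.13 times for Th and 1.47 times for Slc17a8. Zfp521 stood at 1.14 times, Foxp2 at 0.946, Cdh8 at 0.849 and Gpr26 at 0.540. These other 4 markers had their highest value in different libraries, Zfp521, Cdh8 and Gpr26 in control replicate 1 and Foxp2 in control replicate 3.

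**Figure D3:**
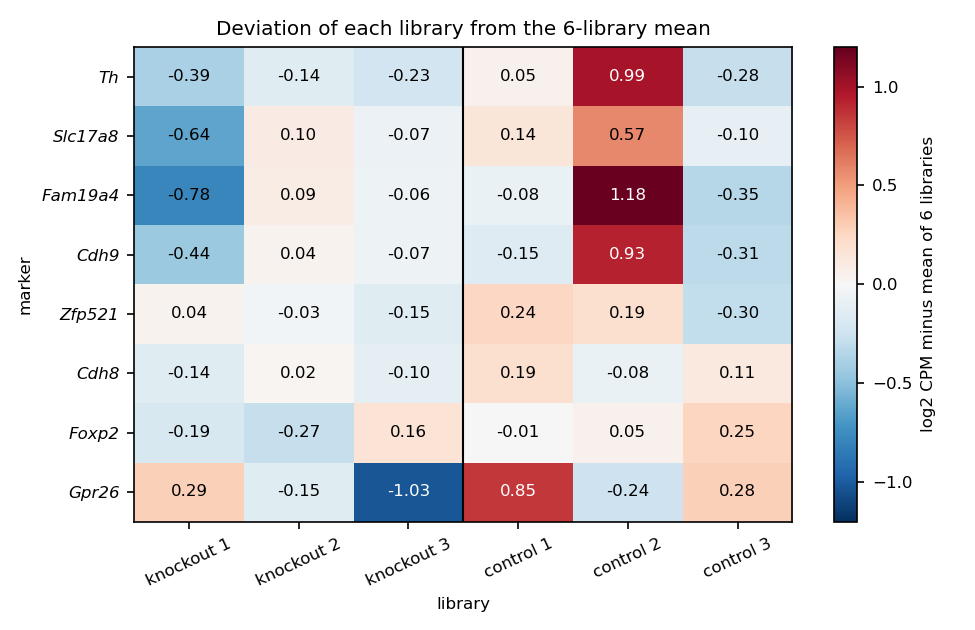
Log2 CPM of each marker in each library minus the mean over the 6 libraries, with knockout libraries on the left. In control replicate 2 the deviations are 0.99 for Th, 0.57 for Slc17a8, 1.18 for Fam19a4 and 0.93 for Cdh9, against 0.19 for Zfp521, 0.05 for Foxp2, -0.08 for Cdh8 and -0.24 for Gpr26.

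At the other end, knockout replicate 1 was the lowest library for 5 of the 8 markers, the 4 above and Cdh8, and for 18.2% of all genes. Its deviation from the mean of 6 libraries was -0.78 for Fam19a4 and -0.64 for Slc17a8 on the log2 scale. Within same-numbered pairs, 8 of 8 markers were lower in the knockout in pair 1, 6 of 8 in pair 2 and 3 of 8 in pair 3, against 49.9%, 50.0% and 47.6% of all genes. For Fam19a4 the log2 ratio of knockout to control was -0.70, -1.10 and 0.28 in pairs 1 to 3, and for Th it was -0.44, -1.13 and 0.04. Pair 3 thus differed in sign from the other pairs for both. When pair 3 was left out of the blocked fit, 3 of the 8 passed, against 5.94% of all genes in that fit. They were Slc17a8 at -0.63 (SE 0.15, edgeR adjusted p = 0.0254), Fam19a4 at -0.91 (SE 0.10, edgeR adjusted p = 0.000506) and Cdh9 at -0.60 (SE 0.15, edgeR adjusted p = 0.0449). Th, at -0.79 (SE 0.29), had an edgeR adjusted p of 0.472 in that fit. A blocked fit without 1 pair keeps 2 pairs and 1 residual degree of freedom, so its SEs rest largely on variance shared across genes. Pair 3 also had the opposite sign for Slc17a8, Fam19a4 and Cdh9, so its removal favours a pass for them. When pair 2 was left out, 0 of the 8 passed, against 5.4% of all genes, and the median of the markers was -0.20. Without pair 1, 0 of the 8 passed, against 208 of 15135 genes, and the median of the markers was -0.30.

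Control replicate 2 was also at an extreme in several other readouts, and part of these leaned the same way in knockout replicate 2. Skeletal muscle markers, 12 genes such as Acta1, Ckm, Ttn and Myh1, summed to 9.59 to 77.3 CPM in the knockout libraries, to 45.0 and 11.1 CPM in control replicates 1 and 3, and to 1734 CPM in control replicate 2. The summed level of 17 pan-neuronal genes was 18540 to 23720 CPM in the knockout and 17020 to 21070 CPM in the control. Control replicate 2 was the lowest of the 6 libraries. Much of this lay in Map1b, at 3437 CPM there against 6871 and 5731 CPM in control replicates 1 and 3. The genes were not uniform, as 3 of the 17 were highest of the controls in control replicate 2. Of these, Stmn2 was at 2809 CPM there, against 2206 and 2435 CPM in control replicates 1 and 3. Among 5 spinal cord markers tested, Aqp4, Slc1a2 and Olig1 were each highest of the 6 libraries in control replicate 2. Sox10 and Gad1 were not. Sox10 was lowest there, at 55.8 CPM against 75.4 to 95.1 CPM in the other libraries. Gad1 was highest in knockout replicate 2, at 2.51 CPM against 1.77 CPM in control replicate 2. Aqp4, a glial water channel gene, was at 11.3 to 19.0 CPM in the knockout and at 16.1, 24.8 and 13.4 CPM in control replicates 1 to 3. Slc1a2, a glial glutamate transporter gene, was at 14.1 to 24.6 CPM in the knockout and 16.4, 31.2 and 16.6 CPM in the control. Olig1, a gene of the oligodendrocyte lineage, was at 0.477 to 2.59 CPM in the knockout and 0.616, 4.31 and 1.90 CPM in the control. The median log2 ratio of control replicate 2 to the mean of the other controls was 0.75 over the 5 spinal cord markers. The sum of the spinal cord list was 119.8 CPM in control replicate 2, below the 121.5 to 130.5 CPM of the knockout. Within the knockout, replicate 2 likewise had the most Aqp4 and Slc1a2 and the lowest pan-neuronal sum. It had the least Map1b (4725 CPM) but the most Stmn2 (2895 CPM). It did not have the most Olig1 (0.818 CPM), and its muscle sum, 9.59 CPM, was the lowest of the knockout. Of spinal cord markers not tested, Gad2, Slc32a1 and Slc6a5 were highest of the 6 libraries in knockout replicate 2, on 22, 19 and 7 reads. Control replicate 2 had 3, 8 and 1 reads of them. Mog and Olig2 were instead highest in control replicate 2, on 13 and 9 reads. The part of these readouts in the levels of the C-LTMR markers was not tested. The 8 markers summed to 229.0, 284.3 and 263.7 CPM in knockout replicates 1 to 3, against 308.0, 523.0 and 248.5 CPM in control replicates 1 to 3. Most of the excess in control replicate 2 came from Th and Fam19a4.

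Counted per 1000 reads of the pan-neuronal genes, the markers overlapped between the groups as they did in CPM. The pan-neuronal sum was lowest in control replicate 2, in large part through Map1b, which raises values per 1000 reads there. Th had 4.25, 6.46 and 5.38 reads per 1000 in knockout replicates 1 to 3, and 6.51, 15.4 and 5.53 in control replicates 1 to 3. The exact two-sided permutation test gave p = 0.2, where 0.1 is the smallest value that 3 against 3 allows. Cdh8 was the steadiest on this scale in the control, at 1.23, 1.26 and 1.24 reads per 1000, and it had 0.864, 1.24 and 1.01 in the knockout (exact permutation p = 0.2). Over the 8 markers the adjusted p of this exact permutation test ran from 0.4 to 0.7. Scaling the edgeR fit to the pan-neuronal genes shifted the median of all genes by -0.125 on the log2 scale, and the median of the markers was then -0.54.

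**Figure D4:**
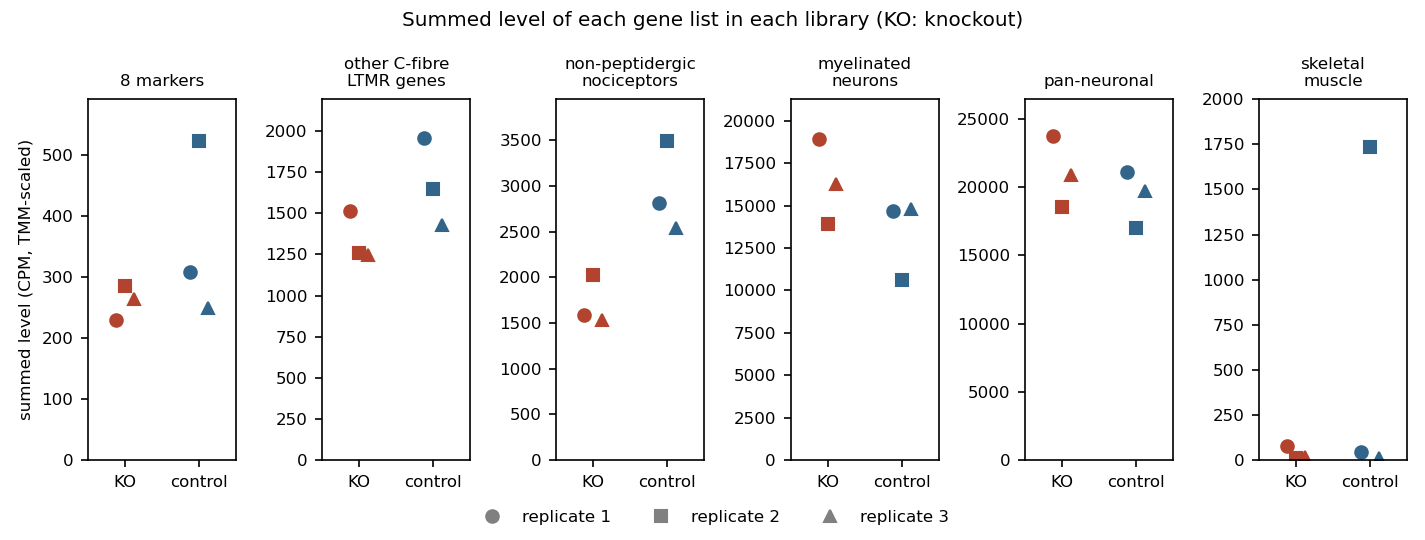
Summed CPM of the 8 markers and of 5 gene lists in each library, knockout left of control, with symbols for the replicate number and a separate axis from 0 in each panel. Control replicate 2 has the highest sum of the markers (523.0 CPM) and of the muscle genes (1734 CPM), and the lowest sum of the pan-neuronal and myelinated lists.

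Sympathetic neurons also make Th. Of their markers 7 were in the table, while Dbh, Phox2a and Hand2 were not among its genes. Slc6a2, the noradrenaline transporter gene, was at 0 to 0.802 CPM in the knockout and 0.224 to 0.725 CPM in the control. Gata3, a transcription factor gene, was at 0 to 0.247 CPM in the knockout and at 0.056, 0.354 and 0.167 CPM in control replicates 1 to 3. It was highest in control replicate 2, on only 6 reads. Gata2 was instead the lowest of the 6 libraries there, at 1.59 CPM, and Slc18a1 the lowest of the controls, at 4.07 CPM. Eya4 was at 0.351 to 0.953 CPM in the knockout and at 0.224, 0.649 and 0.557 CPM in the control. Within their sum, 29.2 to 79.3 CPM in the knockout and 16.3 to 41.1 CPM in the control, most came from the nicotinic receptor genes Chrna3 and Chrnb4, and control replicate 2 was at 30.1 CPM. Of these 7 markers 4 were tested, and Chrnb4 rose by 0.87 (SE 0.18, blocked edgeR adjusted p = 0.0281) while 0 fell. The part of sympathetic cells in the level of Th was not tested.

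Of 10 other enzymes and carriers of catecholamine metabolism tested, 0 passed with the replicate block, against 3.6% of all genes. Without the block 0 passed, against 0.0% of all genes, and their median log2 fold change was 0.12. The members of smallest p were the monoamine oxidase genes, which encode enzymes that break down monoamines. Maob was at 0.44 (SE 0.22) and Maoa at -0.21 (SE 0.14). Ddc, the decarboxylase that acts next after tyrosine hydroxylase, was scarce, with 1.06 to 2.40 CPM in the knockout and 1.45 to 1.90 CPM in the control. Of 7 genes of vesicular glutamate transport and glutamate supply other than Slc17a8, 0 likewise passed in either fit, with a median of 0.10 without the block. The members of smallest p were Glul at 0.18 (SE 0.11) and Got1 at 0.12 (SE 0.10).

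Among 8 further genes expressed by C-LTMRs but shared with other neurons, 2 fell and 0 rose, against 2.36% and 1.24% of all genes. All 8 log2 fold changes were negative without the block, as were 47.7% of those of all genes, with a median of -0.34. Gfra2, the neurturin co-receptor, was at 83.5, 73.9 and 82.0 CPM in knockout replicates 1 to 3, and at 143.5, 128.5 and 99.1 CPM in control replicates 1 to 3. The groups did not overlap, and Gfra2 fell by 0.62 (SE 0.11, blocked edgeR adjusted p = 0.0224). Piezo2, the mechanically gated channel of touch, had 412.5, 326.8 and 298.3 CPM in the knockout and 541.4, 408.5 and 402.1 CPM in the control. It fell by 0.38 (SE 0.06, blocked edgeR adjusted p = 0.00843), and the groups overlapped. Neither passed without the block, where the adjusted p was 0.614 and 0.914, or in the blocked fit without pair 1, where it was 0.0818 and 0.0978. P2ry1, a purinergic receptor gene, was at -0.44 (SE 0.21), Runx1 at -0.31 (SE 0.13), and Bhlha9, a helix-loop-helix factor gene, at -0.27 (SE 0.26), all without the block. Without control replicate 2 the median of this list was -0.23. Without pair 2 the blocked fit had all 8 of them negative, with 3 passing, against 5.4% of all genes.

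Relatives of single markers were described by family, and no difference between a marker and its relatives was tested. In the FAM19A family, Fam19a2 rose by 0.58 (SE 0.09, blocked edgeR adjusted p = 0.00921), with 90.7, 86.7 and 96.8 CPM in the knockout and 70.0, 47.8 and 68.2 CPM in the control. Fam19a5 rose by 0.36 (SE 0.08, blocked edgeR adjusted p = 0.0327), and for both genes the groups did not overlap. Without pair 1 the blocked adjusted p was 0.00883 for Fam19a2 and 0.115 for Fam19a5. The other tested genes of that list, which also held the formyl peptide receptors, did not pass. Thus 2 of 5 rose and 0 fell, against 1.24% and 2.36% of all genes. Of 16 other type II cadherins and catenins, 1 fell and 0 rose, with a median of 0.01. Cdh11 fell by 0.53 (SE 0.08, blocked edgeR adjusted p = 0.00669). Of 6 relatives and partners of Zfp521 and Foxp2, Ebf3, an early B-cell factor gene of the nervous system, fell by 0.30 (SE 0.07, blocked edgeR adjusted p = 0.0453) and 0 rose. Without pair 1 the adjusted p was 0.0636 for Cdh11 and 0.233 for Ebf3, and without pair 2 it was 0.174 for Ebf3.

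Set beside other classes of sensory neuron, the 8 markers had a median log2 fold change between those of the lists that were lowest and highest. In the blocked fit 2.36% of all genes fell and 1.24% rose. Non-peptidergic nociceptor markers had a median of -1.08, and 13 of 19 fell, a count that was 18 without pair 2. They were Mrgprd, Mrgprb4, Mrgprb5, Scn11a, P2rx3, Lpar3, Lpar5, Sst, Osmr, Plxnc1, Agtr1a, Cd55 and Ptgdr, with log2 fold changes from -1.77 for Sst to -0.64 for Plxnc1 in the blocked fit. Peptidergic nociceptor markers had a median of 0.21 with 1 of 11 rising, the neuropeptide gene Adcyap1, and myelinated mechanoreceptor and proprioceptor markers one of 0.17 with 4 of 15 rising, Nefh, Nefm, Ntrk3 and Runx3. Pan-neuronal genes had a median of 0.09, and of 17 Nsg1 rose by 0.30 and Nsg2 fell by 0.39. Genes linked to cold-sensing neurons had a median of 0.09 over 6 genes, and Kcnk18, a potassium channel gene, fell by 0.70 (SE 0.17, blocked edgeR adjusted p = 0.0495). Trpm8, the cold-gated channel, was at 30.7, 21.2 and 16.8 CPM in the knockout and 51.2, 16.0 and 36.0 CPM in the control, so that control replicate 2 had the least. Without pair 2 the blocked median was 0.14, and 2 of 6 passed as lower and 1 as higher, against 5.4% of all genes. They were Trpm8 at -0.90 (edgeR adjusted p = 2.11e-13), Kcnk18 at -0.89 (edgeR adjusted p = 0.000445) and Penk at 0.56 (edgeR adjusted p = 0.0408). With all pairs Trpm8 was at -0.50 (blocked edgeR adjusted p = 0.612). Kcnk18 did not pass without pair 1 or pair 3, where the edgeR adjusted p was 0.265 and 0.122. Over all the lists 29 genes passed in the blocked fit, and 13 of them passed with each pair left out in turn, Fam19a2 and the non-peptidergic markers named above except Mrgprb5. The differences between these lists and the C-LTMR markers were not tested.

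**Figure D5:**
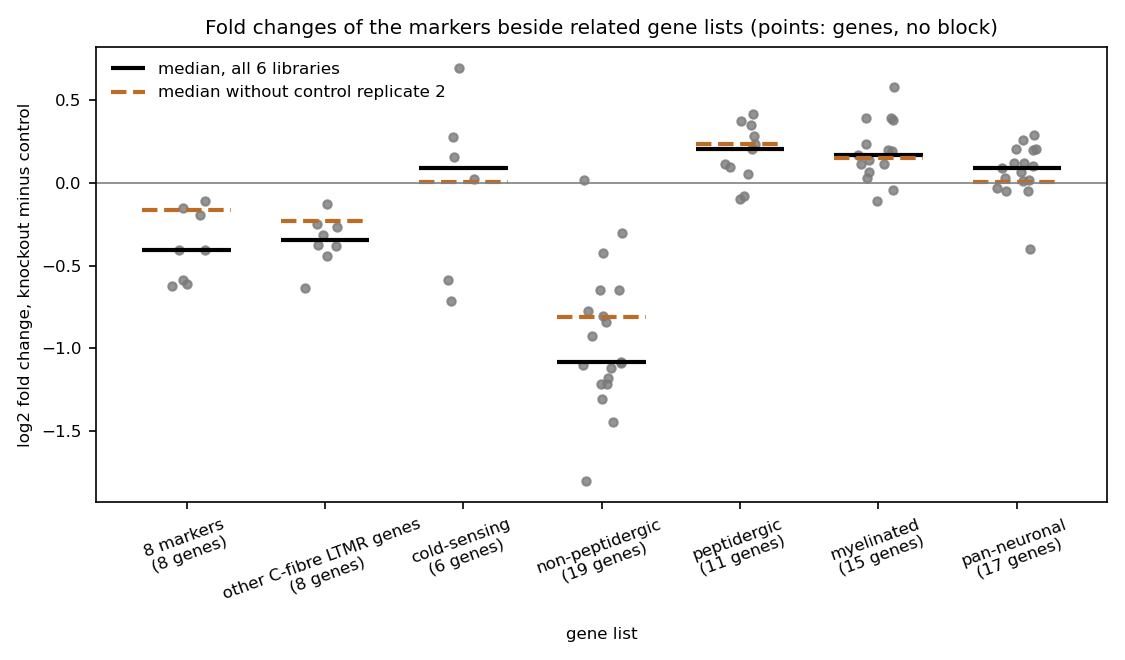
Log2 fold changes, knockout minus control, of the 8 markers and of the tested genes of 6 related lists in the edgeR fit without a block. Points are genes, solid lines are medians with all 6 libraries, and dashed lines are medians without control replicate 2, which is -0.165 for the markers and -0.81 for the non-peptidergic list.

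Among unmyelinated touch neurons, Mrgprb4 marks a second class that responds to stroking in mice. Mrgprb4 was at 7.15, 9.70 and 3.52 CPM in knockout replicates 1 to 3, and at 10.4, 24.9 and 8.25 CPM in control replicates 1 to 3. Like Th, it was highest in control replicate 2, yet it was lower in the knockout in each pair and fell by 1.04 (SE 0.17, blocked edgeR adjusted p = 0.00921). Without pair 2 the blocked value was -0.84 (edgeR adjusted p = 0.0029). Without the block it was -1.09 with all 6 libraries and -0.44 without control replicate 2 (edgeR adjusted p = 0.91 and 0.937). The median log2 ratio of control replicate 2 to the mean of the other controls was 0.37 for the 8 markers, 0.44 for the non-peptidergic list, -0.39 for the myelinated list and -0.77 for the cold-sensing list. Mrgpr genes resemble each other, which leaves the assignment of their reads uncertain.

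The genes whose levels over the 6 libraries were most like those of Th were Rap2c, D10Wsu102e, 2900011O08Rik, Zfp40 and Arpc2. Likeness was the root mean square difference of standardised log2 CPM, here 0.128 to 0.178, among 8750 genes with a mean log2 CPM of at least 4. By the same measure Cdh9 and Fam19a4 were 0.273 and 0.303 from Th, Slc17a8 0.495, Zfp521 0.822, and Foxp2, Cdh8 and Gpr26 1.22 to 1.34. The genes most like the mean of the 8 standardised markers were Rasgrp1, Rspo2, Cdh10, Lbh and Nipal2, at 0.116 to 0.159. Rasgrp1, which encodes an activator of Ras, was at 171.3, 261.6 and 204.6 CPM in the knockout and 395.4, 574.3 and 293.9 CPM in the control. These genes were chosen for their profile over the same libraries, so no test between the groups is given for them. With 6 libraries many genes can show a like pattern, and the likeness is a description of these libraries.

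The authors' deposited table gave the same directions for the 8 markers, with log2 fold changes from -0.63 for Fam19a4 to -0.11 for Zfp521. In the authors' deposited table the false discovery rates ran from 0.432 for Th to 0.986 for Zfp521. Library totals were 16090726 to 19221415 counts, so that 3 counts corresponded to 0.159 to 0.185 CPM. Kif2a itself, measured over the whole gene, was at 90.6, 85.7 and 88.5 CPM in the knockout and 105.6, 93.9 and 92.7 CPM in the control, a log2 fold change of -0.14 (SE 0.10, edgeR adjusted p = 0.957). Whole-gene counts of ganglia separate neither the deleted exons nor the neurons. Avil fell by 1.16 (SE 0.07, blocked edgeR adjusted p = 2.39e-05). Adipocyte markers summed to at most 9.41 CPM in the knockout and to 3.53 to 37.7 CPM in the control, and erythroid markers to 26.4 to 72.0 CPM in the knockout and 18.0 to 39.9 CPM in the control. Of the erythroid genes Slc4a1 rose by 0.76 (SE 0.14, blocked edgeR adjusted p = 0.0157), and the adipocyte genes of smallest p, Fabp4 and Plin4, did not pass. Spinal cord markers summed to 121.5 to 130.5 CPM in the knockout and 109.6 to 119.8 CPM in the control, with the largest part in each library from Sox10, which glia of the ganglion share, while Sox10 and Aqp4, the members of smallest p, did not pass.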

How the data were processed

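Poly(A) RNA of mouse dorsal root ganglia was sequenced in 3 knockout and 3 control libraries. The tools cutadapt, STAR and DESeq2 and the build mm10 are named, without versions, per the submitters' processing notes. The counting tool, annotation and strand setting are not stated there.

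The authors deposited raw counts per gene, per the file headers. The same deposited table holds the authors' normalized signal, log2 fold changes, p-values and false discovery rates, and 6 columns of log2 transformed values that were not used. No gene had fewer than 6 counts in total.

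Tests used edgeR 4.0.16 in R 4.3.3 (filterByExpr, TMM scaling, robust quasi-likelihood fit, group as the only term), with Benjamini-Hochberg adjustment over 15043 genes and a threshold of 0.05. Log2 CPM used a prior count of 2. A 95% confidence interval is the log2 fold change plus or minus its SE times the t quantile, and covers only the spread of these libraries. Alternatives were DESeq2 1.42.0, limma 3.58.1, other scalings and filters, and left-out libraries. The fits were tested on simulated counts in which 100 genes changed 2-fold and 100 changed 4-fold. Without a block 74 and 93 of these were recovered, with 14 false calls. With the block 65 and 95 were recovered, with 19 false calls. No pair effect was simulated, so the blocked fit was not tested on data with pairs. Exons are those of GENCODE M21.

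Deviations from the group means correlated between same-numbered libraries, with Pearson's r of 0.53, 0.30 and 0.17 over 15043 genes for pairs 1 to 3. All are above 0.1, so the numbers were treated as pairs. This rests on the data, as no label explains the numbers. Knockout replicate 3 with control replicate 2 also gave 0.14, above the same level, so the level does not establish pair 3. Each gene said to have risen or fallen rests on this pairing. Within groups, chi-square tests of the counts found 11.2 to 50.9 per degree of freedom, so no library repeats another.

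The markers and gene lists were chosen with earlier results of these data known. Named genes are every marker, the genes of each list that passed with or without the block (or else those of smallest p), and the genes of most like pattern. P2ry1, Runx1, Bhlha9, Ddc, Trpm8, Slc6a2, Slc18a1, Gata2, Gata3, Eya4, Slc1a2, Olig1 and Gad1 were named after their values were seen. So were Penk, Map1b, Stmn2, Gad2, Slc32a1, Slc6a5, Mog and Olig2. Results that rest on some of the listed marker genes are not reported here.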

Additional observations from a re-analysis of the deposited data

How the results depend on the processing

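Under the other scalings, filters and left-out libraries tried without a block, and in limma-voom, limma-trend and DESeq2, 0 of the 8 markers were called. The count of all genes called was 0 without a block, 542 with the replicate block and 65 in DESeq2. In the blocked fit it was 208, 819 and 897 without pairs 1, 2 and 3, and 3 markers were called without pair 3. Each of these fits keeps 2 pairs and 1 residual degree of freedom, so its calls are not firmer than those with all pairs. With 1 library left out and no block, 0 genes were called, and the median of the markers ran from -0.59 to -0.165, the value nearest 0 being that without control replicate 2. There Fam19a4 and Cdh9 changed sign, within ranges over left-out libraries of -0.895 to 0.007 and -0.63 to 0.096. The cause was not tested. Of 144 alternative values of the 8 markers, 142 were negative. These refit the same 6 libraries, and most keep control replicate 2, so they are not separate checks of direction. Over all genes 47.7% were negative in the fit without a block. The replicate block gave a median of -0.37 for the markers and changed no call of a marker while all pairs were kept. Leaving out control replicate 2, chosen for the lists after seeing the data, moved the median of the non-peptidergic list to -0.81 and that of the muscle list to 0.51 (-4.17 with it). Gpr26, with 12 to 54 counts, is limited by depth.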
